A study of Mus musculus with 20 samples.

Results

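The genes described here are 10 markers of the adipocyte, the fat-storing cell of adipose tissue: Adipoq, Cidec, Plin1 (named Plin in the array's design), Lep, Fabp4, Retn, Cfd, Cebpa, Pparg and Scd1. They were taken by gene name and not by a cut on measured values, but earlier results of these data were known when they were chosen. The array carried 14 probes for them among 41174 distinct probes, on 32 of 43379 non-control spots, and all 14 were well above background on all 20 arrays and saturated on none. Among the 25292 genes that could be tested, each marker was represented by its brightest probe.

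Soleus, a slow postural muscle, and the faster gastrocnemius came from male ICR mice, an outbred strain, aged 6 months. Animals were assigned at random to move freely (control) or to have the hind limbs unloaded for 24 h by suspension from the tail at a head-down tilt of 45° (hind-limb suspension, HLS). Each of the 4 groups had 5 one-colour Agilent arrays, each with total RNA of 1 muscle of 1 animal, and arrays of both muscles with 1 number in 1 arm came from the same mouse. A level is log2 of the processed intensity relative to the 75th percentile of its array. Levels of different probes are not comparable, so every comparison is within a probe.

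White adipocytes keep triglyceride in 1 large droplet, coated by proteins such as perilipin 1, and secrete hormones that report the size of the store. Pparg and Cebpa encode the transcription factors that drive and hold adipocyte identity, and the droplet proteins, fatty acid carriers and adipokines are among their targets. Skeletal muscle holds adipocytes between its bundles and along its surface, while muscle fibres store lipid in small droplets coated by other perilipins.

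Promoters of some markers whose levels moved together are shown because C/EBP proteins are the best known partners of PPARγ at fat-cell genes. Windows of 250 bases before a transcription start were available for 8 of the 10 markers in RefSeq's table for GRCm38.p6 (not for Fabp4 and Scd1), 11 windows in all. The letters TTGCNNAA, a form of the C/EBP consensus in which N is any base, were searched on both strands, and capitals mark each match. Every stretch with a match is printed, and Adipoq as 1 window without a match, so the printed set favours windows with a match. In the printed windows, bases outside the gene's own span are given whole, and a match inside it as 30 bases around it. The first sequence is Lep, chr6:29059971-29060220, plus strand, ending at the base before the start. The Plin1 pair is chr7:79732905-79733026 and chr7:79732816-79732845, minus strand. The Cidec stretch is chr6:113434944-113434973, minus strand, before a start that lies inside the gene. The Pparg pair is chr6:115421840-115421869 and chr6:115422036-115422065, plus strand, before the start farthest downstream of the 3 in the table. Adipoq, chr16:23146286-23146535, plus strand, has no match.
Lep: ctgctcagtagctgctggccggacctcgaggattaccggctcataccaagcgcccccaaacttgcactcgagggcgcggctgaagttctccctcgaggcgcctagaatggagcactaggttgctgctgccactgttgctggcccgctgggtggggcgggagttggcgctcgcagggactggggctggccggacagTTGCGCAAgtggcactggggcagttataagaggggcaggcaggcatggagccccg
Plin1, bases 250 to 129 before the start: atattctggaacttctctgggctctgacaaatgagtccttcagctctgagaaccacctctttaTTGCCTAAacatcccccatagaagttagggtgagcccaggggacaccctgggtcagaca
Plin1, bases 69 to 40 before the start: tctgagaggcaTTGCCCAAgattccctgga
Cidec: ggagggctctaTTGCTCAAgggcccatggg
Pparg, bases 226 to 197 before the start: tgtaccaagtcTTGCCAAAgcagcagacag
Pparg, bases 30 to 1 before the start: ttaaccaaccaatcTTTTGCAAgacataga
Adipoq: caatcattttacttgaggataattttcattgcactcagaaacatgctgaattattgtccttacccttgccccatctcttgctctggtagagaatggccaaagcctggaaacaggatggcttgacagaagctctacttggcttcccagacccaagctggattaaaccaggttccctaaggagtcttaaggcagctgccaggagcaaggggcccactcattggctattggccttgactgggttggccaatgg

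These letters stood in 4 of the 11 windows of the markers and in 9.56% of 32851 windows of the same length in the table. The windows of Cfd, Retn and Cebpa, the other Cidec window and the other Pparg windows held no match and are not printed. The perfect DR1 repeat, the consensus bound by PPARγ with its partner RXR, was searched on both strands too. It stood in 0.0335% of all windows and in none of the markers' windows, so the motifs did not overlap here. A match is a description of the sequence, not a binding site.

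Most arrays matched their labelled muscle, and 1 stood between. Over 6 slow-fibre genes the mean level lay between 7.39 and 7.65 on the soleus control arrays, between 7.26 and 7.67 on soleus HLS 2 to 5, and between 4.45 and 5.42 on all gastrocnemius arrays. The array labelled soleus HLS 1 stood at 5.73, and its mean over 5 fast-fibre genes (8.70) lay above all gastrocnemius arrays (8.09 to 8.57). The marker results of soleus HLS, and the calls of the other lists there, are therefore also given without it. No slide held both muscles, and the control gastrocnemius and control soleus arrays were also scanned on different days, so slide and muscle cannot be told apart. All differences are relative to the arrays' percentile: scaled to spike-in RNA instead, the median of all genes stood at -0.21 for HLS in soleus, 0.79 for HLS in gastrocnemius and 1.00 for the control muscles, so small differences in the latter pair can turn direction. In bulk muscle, fewer cells of a type and less RNA per cell cannot be told apart either.

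The first comparison asks whether the markers stood at different levels in the muscles of freely moving mice. Of the 10 markers, 9 were higher in soleus than in gastrocnemius (limma, Benjamini-Hochberg adjusted p below 0.05), and for all 9 the 5 soleus arrays lay above the 5 gastrocnemius arrays. Over all 25292 genes, 33.6% differed between the control muscles, 12.7% were higher in soleus, and 8.3% were higher without overlap. The median difference of the markers was 1.44 on the log2 scale, against -0.05 over all genes. Cidec, Adipoq, Plin1 and Cfd differed most. With quantile normalisation, 3868 of the 7998 genes that differed were higher in soleus, against 3206 of 8488 here. The markers' 9 differences kept their direction under all 3 scalings.

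Cidec, whose protein fuses small lipid droplets into the single large droplet of white fat, stood at 2.54, 2.91, 3.81, 4.61 and 3.64 on soleus control 1 to 5. On gastrocnemius control 1 to 5 it stood at -0.08, 1.06, 0.18, 0.56 and 0.80. The lowest soleus array was well above the highest gastrocnemius array, and soleus was higher by 3.00 ± 0.48 (SE, adjusted p = 0.00012), which is 7.98-fold. Plin1, the perilipin that coats the fat-cell droplet and gates its lipolysis, stood at 1.13, 1.11, 2.20, 2.74 and 1.97 in soleus. It stood at -1.02, -0.28, -0.95, -0.68 and -0.42 in gastrocnemius. Each soleus array was above 1 and each gastrocnemius array below 0, a difference of 2.50 ± 0.47 (5.66-fold, adjusted p = 0.00056).

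Among the secreted factors, Adipoq, the gene of the insulin-sensitising hormone adiponectin, stood at 2.26, 2.63, 3.73, 4.63 and 3.23 on the soleus control arrays. On the gastrocnemius control arrays it stood at 0.37, 1.14, 0.75, 0.61 and 0.99. The groups were apart by 2.52 ± 0.48 (adjusted p = 0.00056), or 5.75-fold, with a 95% interval of 1.52 to 3.52 on the log2 scale. Cfd, the gene of the complement protease adipsin, stood at 5.61, 4.60, 6.75, 7.32 and 6.46 in soleus and at 3.37, 3.81, 3.69, 3.70 and 4.05 in gastrocnemius. Soleus 2 came nearest to the other muscle, and the difference was 2.42 ± 0.49 (5.36-fold, adjusted p = 0.00092). Retn, the gene of the hormone resistin, had smaller gaps: -0.23, 0.02, 0.22, 1.16 and 0.16 in soleus against -0.66, -0.46, -0.82, -0.85 and -0.60 in gastrocnemius. It was higher by 0.95 ± 0.20 (1.93-fold, adjusted p = 0.0013). Lep, the gene of the satiety hormone leptin, stood at -2.26, -1.83, -1.60, -1.07 and -1.45 in soleus and between -2.63 and -2.38 in gastrocnemius. The gap between soleus 1 and the highest gastrocnemius array was small, and the difference was 0.83 ± 0.22 (1.78-fold, adjusted p = 0.006).

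Of the lipid-handling enzymes and carriers, Scd1, which desaturates newly made fatty acids, stood at 2.19, 2.65, 3.11, 3.78 and 3.58 in soleus. It stood at 1.04, 2.09, 0.85, 0.98 and 1.15 in gastrocnemius, where array 2 reached nearly to the lowest soleus array. The difference was 1.84 ± 0.49 (3.59-fold, adjusted p = 0.0073). Fabp4, the fatty acid carrier of adipocytes that capillary endothelium and macrophages also make, ranged from 7.0 to 7.79 in soleus and from 6.19 to 6.35 in gastrocnemius. It was higher by 1.03 ± 0.17 (2.05-fold, adjusted p = 0.00018). Pparg ranged from 0.98 to 1.71 in soleus and only from 0.39 to 0.48 in gastrocnemius, and was higher by 0.84 ± 0.11 (1.79-fold, adjusted p = 2.1e-05). Cebpa was the exception. It ranged from -0.89 to -0.44 in soleus and from -0.95 to -0.21 in gastrocnemius, so the groups overlapped, with a difference of -0.13 ± 0.14 (adjusted p = 0.51).

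**Figure D1:**
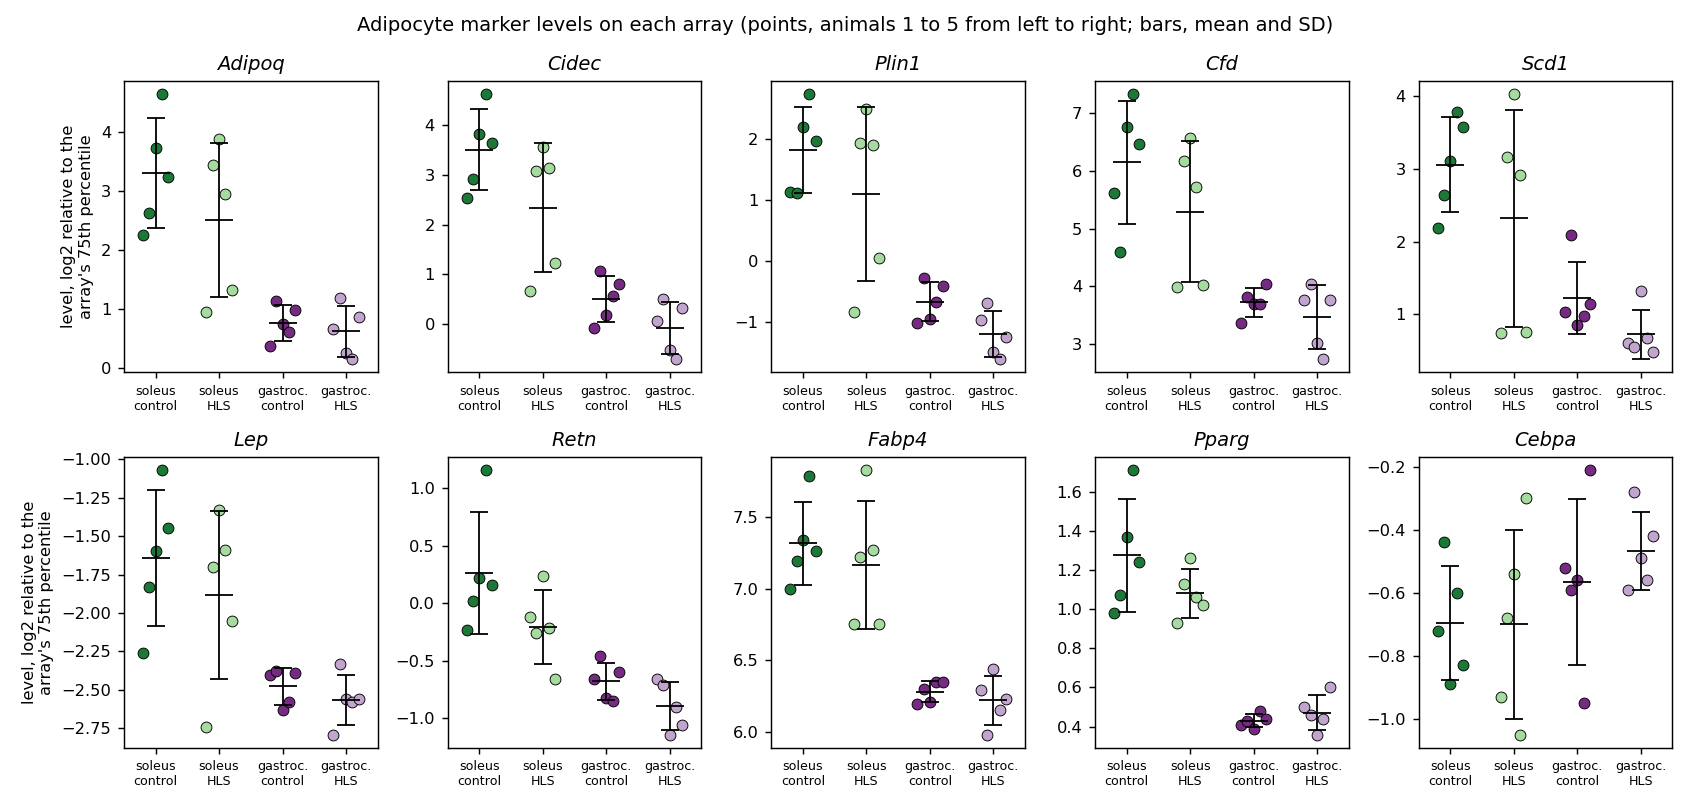
Level of each marker on each array (y axis, log2 relative to the array's 75th percentile) in the 4 groups of 5 arrays (x axis), with animals 1 to 5 from left to right and the mean and SD as bars. For all markers but Cebpa the control soleus arrays lie above the control gastrocnemius arrays, and soleus HLS 1 and 5 lie low for Adipoq, Cidec, Plin1, Cfd and Scd1.

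The muscle difference was also measured in the suspended mice, a comparison added after the values had been seen. The same 9 markers were higher in soleus, where 30.9% of all genes differed and 13.3% were higher. Cidec was higher by 2.40 ± 0.48 (adjusted p = 0.00093), Plin1 by 2.31 ± 0.47 (adjusted p = 0.0012) and Adipoq by 1.88 ± 0.48 (adjusted p = 0.0058). Cfd (1.82), Scd1 (1.59), Fabp4 (0.94), Retn (0.69), Lep (0.68) and Pparg (0.61) followed, and Cebpa stood at -0.23 (adjusted p = 0.23). By the brightest probe of each gene, 4 markers (Cidec, Fabp4, Retn and Pparg) were higher without overlap, against 8% of all genes. When soleus HLS 1 was left out these counts were 7 markers and 11.6% of all genes. Without that array Adipoq stood at 2.27, Cidec at 2.82 and Plin1 at 2.80, and all 9 calls held. Lep and Scd1 lost their calls when soleus HLS 2, 3 or 4 was left out, with adjusted p between 0.051 and 0.069 for Lep and between 0.052 and 0.063 for Scd1.

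Scan day could be entered as a block because gastrocnemius HLS 2 to 5 shared a day with soleus arrays. With that block, the differences in controls stayed in their direction (Cidec 3.16, Adipoq 2.57, Plin1 2.80, Cfd 2.80, Scd1 1.70), but Pparg alone kept an adjusted p below 0.05, and Cidec stood at 0.074. Over all genes the share called fell with this block too, from 33.6% to 5.43%. In HLS mice 8 of the 9 calls held with the block, all but Lep. When the Adipoq level of each array was entered as a covariate, none of the other markers passed in controls: Cidec stood at 0.56 (adjusted p = 0.11), Pparg at 0.46 (adjusted p = 0.053) and Plin1 at 0.10 (adjusted p = 0.85). In HLS mice Cidec alone passed (0.58, adjusted p = 0.036). Over all genes the covariate lowered the share called to 5.22% in controls and 11.2% in HLS mice. Adipoq itself differed between the muscles, so this covariate shares most of its range with the groups.

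The second comparison, HLS against control soleus, asks whether unloading for 24 h altered the markers in the postural muscle. No marker passed, against 5.95% of all genes, and 2 (Cidec and Retn) had an unadjusted p below 0.05, as had 17.9% of all genes. By the brightest probes all 10 estimates lay below 0, with a median of -0.60 against 0.05 over all genes. The dimmer Cebpa probe gave 0.26 ± 0.35 (adjusted p = 0.77). Several markers moved together from array to array, so the 10 signs are not separate observations. The groups overlapped for all 10 markers, where 5.07% of all genes were without overlap. Cidec stood at 0.67, 3.07, 3.56, 3.14 and 1.23 on soleus HLS 1 to 5, and 2 of these 5 arrays lay below all control arrays while the others lay inside the control range. The difference was -1.17 ± 0.48 (adjusted p = 0.18), and -0.75 without HLS 1 (adjusted p = 0.41).

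The same arrays stood apart for other markers. Adipoq was at 0.95, 3.43, 3.88, 2.95 and 1.32 on soleus HLS 1 to 5, and Plin1 at -0.84, 1.94, 2.49, 1.90 and 0.04. HLS 1 and 5 were below every control array and HLS 2 to 4 within the control range for both genes. The differences were -0.79 ± 0.48 for Adipoq (95% interval -1.79 to 0.21, adjusted p = 0.42) and -0.72 ± 0.47 for Plin1 (-1.71 to 0.27, adjusted p = 0.47). Scd1 stood at 0.75, 3.17, 4.03, 2.92 and 0.76, a 9.72-fold range within 1 group, and differed by -0.74 ± 0.49 (adjusted p = 0.48). Cfd stood at 3.99, 6.17, 6.57, 5.71 and 4.02 and differed by -0.86 ± 0.49 (adjusted p = 0.39). The lower ends of the 95% intervals were -2.16 for Cidec, -1.88 for Cfd and -1.77 for Scd1, well below the estimates.

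Retn stood at -0.12, -0.26, 0.24, -0.21 and -0.66 on soleus HLS 1 to 5, where HLS 5 lay below the control range and HLS 2 just below it, and differed by -0.47 ± 0.20 (adjusted p = 0.21). Pparg (0.93, 1.13, 1.26, 1.06 and 1.02; difference -0.19 ± 0.11, adjusted p = 0.40) lay within or just below the control arrays. Lep (-0.23, adjusted p = 0.64), Fabp4 (-0.15, adjusted p = 0.71) and Cebpa (-0.01, adjusted p = 0.99) had narrower intervals, of -0.68 to 0.21, -0.51 to 0.21 and -0.31 to 0.29. Without HLS 1 the estimates were -0.40 for Adipoq, -0.24 for Plin1, -0.53 for Cfd and -0.35 for Scd1. On slide 5 alone (soleus control 5 and HLS 1 to 3), the difference was -1.21 for Cidec, -0.48 for Adipoq and -0.78 for Plin1. On scan day 2 alone (soleus control 1 to 5 and HLS 1 to 3), these genes differed by -1.07, -0.54 and -0.63. Both sets hold HLS 1. On HLS 2 and 3, the other HLS arrays there, Adipoq (3.43 and 3.88) and Plin1 (1.94 and 2.49) stood above their control means. The lower averages of Adipoq and Plin1 on scan day 2 therefore rest on HLS 1. Cidec (3.07 and 3.56) stood on either side of its control mean. On slide 5, control 5 stood at 3.23 for Adipoq, 1.97 for Plin1 and 3.64 for Cidec. HLS 2 and 3 were above it for Adipoq, on either side for Plin1 and below for Cidec.

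In gastrocnemius no marker passed either, against 3.17% of all genes (7.43% were without overlap between the groups), and none had an unadjusted p below 0.05. Adipoq stood at 0.66, 1.18, 0.25, 0.16 and 0.87 on HLS 1 to 5, spanning the control range, with a difference of -0.15 ± 0.48 (adjusted p = 0.94). Cidec, at 0.07, 0.50, -0.52, -0.69 and 0.32, had HLS 3 and 4 below all controls and differed by -0.57 ± 0.48 (adjusted p = 0.67). Plin1, at -0.97, -0.69, -1.50, -1.61 and -1.25, had HLS 3 to 5 below all controls and differed by -0.53 ± 0.47 (adjusted p = 0.70). Scd1, at 0.61, 0.55, 1.32, 0.67 and 0.49, had every array but HLS 3 below all controls and differed by -0.49 ± 0.49 (adjusted p = 0.74). The remaining estimates lay between -0.25 (Cfd) and 0.10 (Cebpa). Each SE rests on 1 spread shared by all 4 groups, so those given here for gastrocnemius hold soleus variation too. For Plin1 the SD was 0.70 and 1.43 in soleus control and HLS, and 0.32 and 0.38 in gastrocnemius control and HLS. In a fit of the gastrocnemius arrays alone no marker passed, where 4.54% of all genes did. The effect of HLS was not shown to differ between the muscles for any marker, against 0.00791% of all genes called. By the brightest probes all 10 interaction estimates lay below 0, from -0.64 ± 0.68 (Adipoq) to -0.09 ± 0.24 (Fabp4), with adjusted p of at least 0.92. The dimmer Cebpa probe gave 0.20 ± 0.50 (adjusted p = 0.98).

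**Figure D2:**
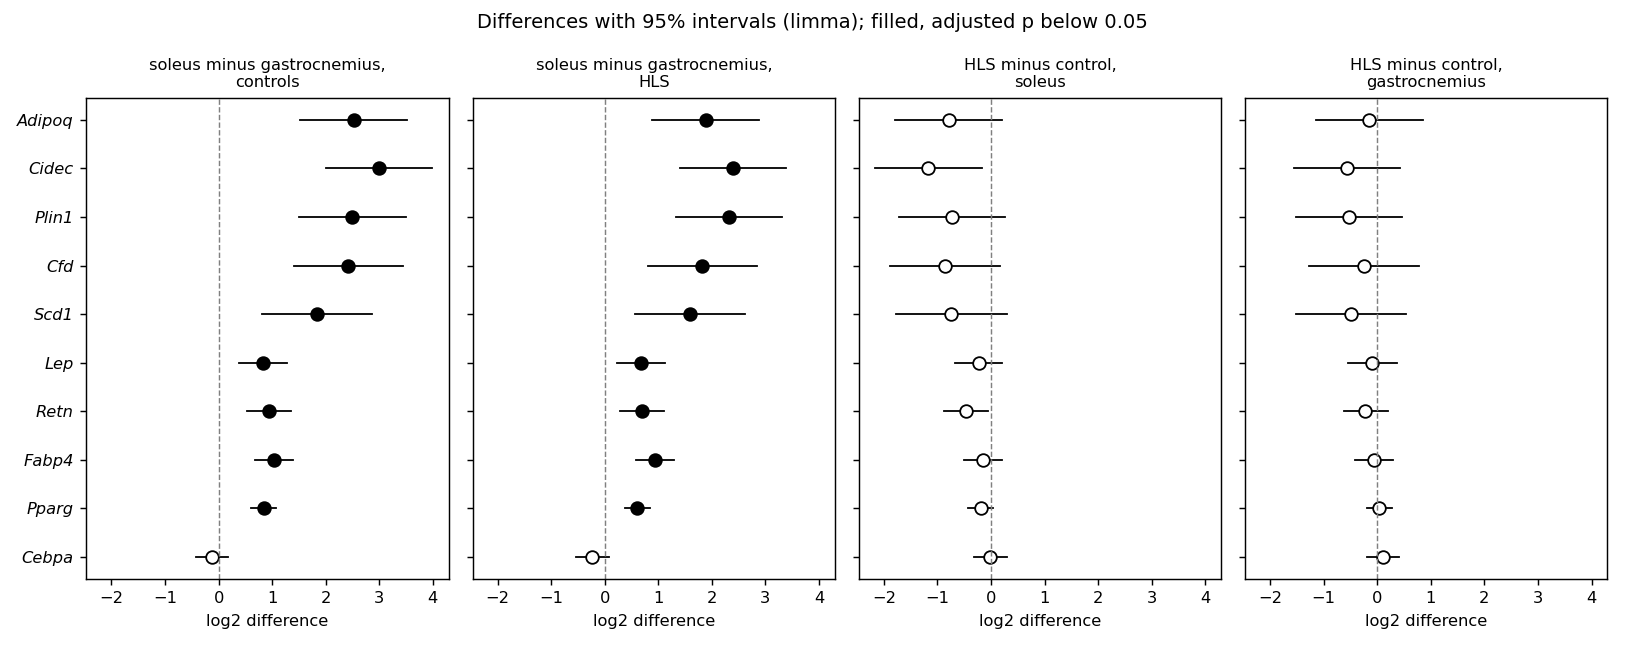
Log2 difference of each marker (x axis) with its 95% interval from limma in 4 comparisons, for the 10 genes (y axis); filled circles have an adjusted p below 0.05. The muscle differences of 9 markers are filled in controls and in HLS mice, from 3.00 for Cidec to 0.61 for Pparg, and no circle is filled in the HLS comparisons.

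The clearest pattern within groups was between arrays. Soleus control 4 was the highest of its group for 9 of the 10 markers and control 1 the lowest for 7. Soleus HLS 3 was the highest for 9 and HLS 1 the lowest for 8. Within soleus HLS, Plin1 ranged over 10.1-fold, Adipoq over 7.64-fold, Cidec over 7.42-fold and Cfd over 5.98-fold, while Pparg ranged over 1.26-fold and Cebpa over 1.69-fold. In gastrocnemius HLS the same genes ranged over 1.90-fold (Plin1), 2.03-fold (Adipoq), 2.29-fold (Cidec) and 2.47-fold (Cfd). The mean level over the 10 markers ran from 0.94 to 2.80 in soleus HLS and from 1.85 to 3.21 in soleus controls, against 0.38 to 0.87 and 0.67 to 1.11 in gastrocnemius.

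**Figure D3:**
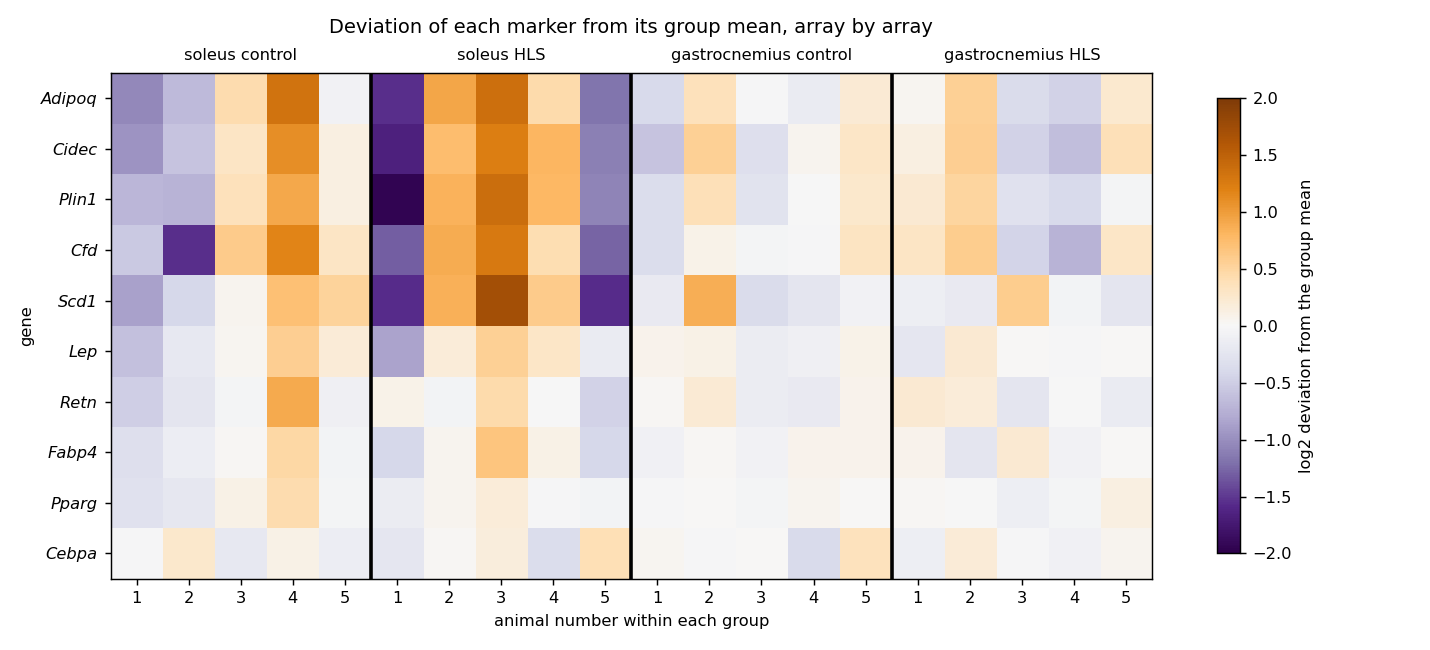
Log2 deviation of each marker from its group mean (colour) on each of 20 arrays (x axis, animal number within group) for the 10 genes (y axis). Soleus control 4 and soleus HLS 3 are above the mean for all 10 markers, soleus control 1 for none, and soleus HLS 1 and 5 for 1 each.

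After subtraction of group means, the levels of several markers followed each other over the 20 arrays. These correlations are descriptions without a test, since all genes of an array share its RNA, labelling and scaling. Pearson's r with Adipoq was 0.97 for Cidec, 0.96 for Plin1 and 0.93 for Cfd, and in gastrocnemius alone (10 arrays) it was still 0.94, 0.89 and 0.91. Lep (0.87), Scd1 (0.85), Fabp4 (0.81), Pparg (0.79) and Retn (0.69) came next, and Cebpa by its brightest probe stood at 0.05. For the dimmer Cebpa probe no r was computed. It stood at -1.46, -0.60, -0.63, -0.88 and -1.43 on soleus HLS 1 to 5, lowest on HLS 1 and 5 as Adipoq was. On soleus control 1 to 5 it stood at -1.47, -2.95, -0.19, -1.26 and -0.46, highest on control 3, where Adipoq was highest on control 4. In gastrocnemius alone r was 0.42 for Lep, 0.45 for Pparg, 0.52 for Retn and 0.46 for Cebpa. Scd1 and Fabp4 tracked Adipoq in soleus (r = 0.94 for both) but not in gastrocnemius (0.06 and -0.33). Without soleus HLS 1, over 19 arrays, r was 0.96 for Cidec and Plin1, 0.92 for Cfd, 0.84 for Retn and 0.79 for Scd1.

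The markers followed Adipoq with different slopes. In soleus, a rise of 1 log2 unit in Adipoq went with 0.94 in Cidec, 0.96 in Plin1, 0.96 in Scd1 and 0.94 in Cfd. It went with 0.40 in Lep, 0.31 in Fabp4, 0.28 in Retn and 0.16 in Pparg, and with -0.01 in Cebpa by its brightest probe. Without HLS 1 these soleus slopes were 0.88 for Cidec, 0.84 for Plin1, 0.94 for Scd1, 0.99 for Cfd and 0.41 for Retn. In gastrocnemius Cidec (1.25), Cfd (1.05) and Plin1 (0.85) again had the steepest slopes, while Scd1 (0.06) and Fabp4 (-0.12) did not share those of soleus, and Cebpa stood at 0.25.

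**Figure D4:**
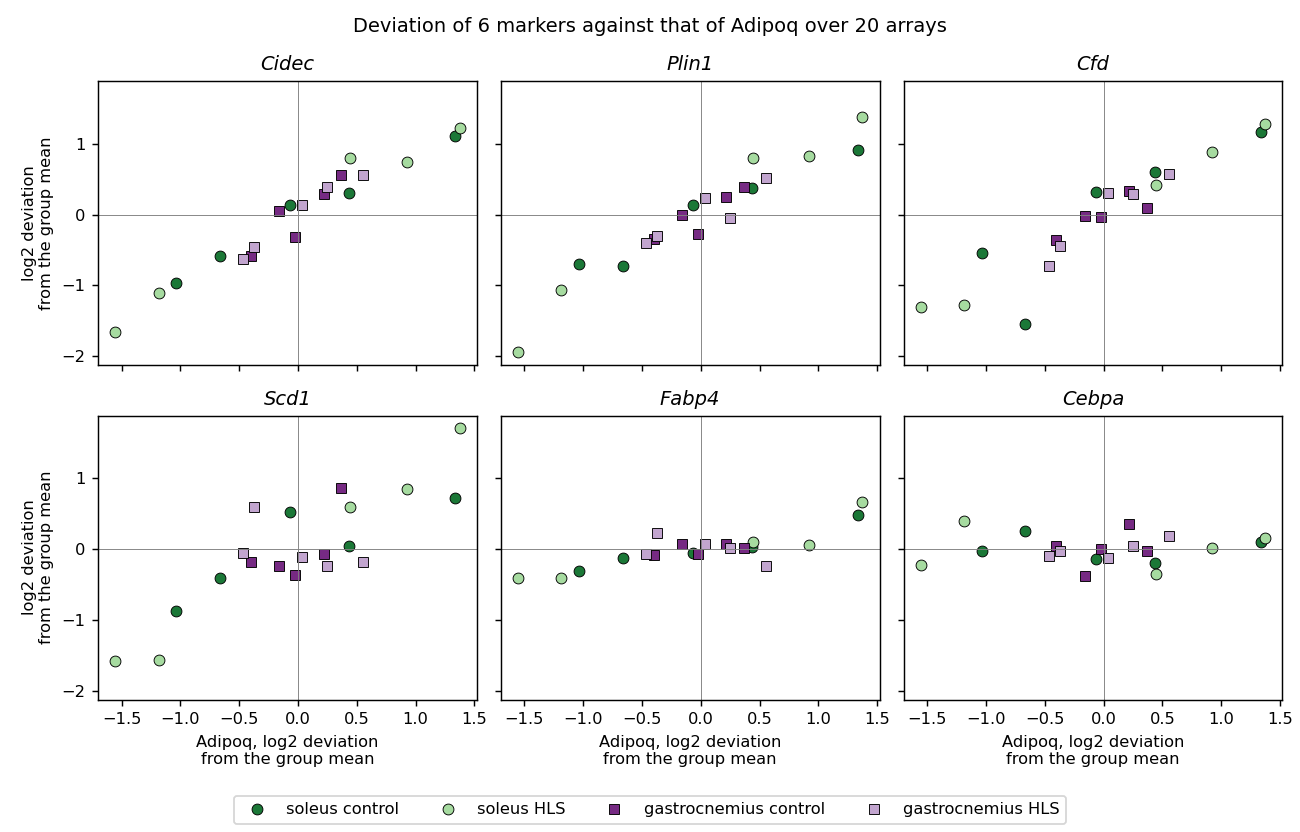
Log2 deviation from the group mean of 6 markers (y axis) against that of Adipoq (x axis) over 20 arrays, with circles for soleus and squares for gastrocnemius. Cidec, Plin1 and Cfd follow Adipoq in both muscles (r = 0.97, 0.96 and 0.93), and Scd1 in soleus but not in gastrocnemius (0.94 and 0.06). Cebpa, by its brightest probe, had an r of 0.05 over all arrays (-0.06 in soleus and 0.46 in gastrocnemius).

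The level of a marker in 1 muscle of a mouse was not seen to follow its level in the other muscle. With 10 animals, soleus HLS 1 among them, r is imprecise and a moderate relation could be missed. Over 10 animals, r between the soleus and gastrocnemius deviations was -0.19 for Adipoq, -0.25 for Cidec, -0.26 for Plin1 and -0.26 for Cfd, and the markers ran from -0.38 (Retn) to 0.37 (Fabp4). HLS animals 1 and 5, with soleus deviations of -1.56 and -1.19 for Adipoq, stood at 0.04 and 0.25 in gastrocnemius. In each, 1 of 10 markers lay above the soleus mean and 7 above the gastrocnemius mean. HLS 5 was typical in its slow-fibre genes (mean 7.26), while HLS 1 was not (5.73).

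The genes outside the list whose deviations were most like those of Adipoq included further fat-cell genes. Cidec, Plin1 and Cfd were among the 13 with the highest r of 25291 genes compared over 20 arrays. The 10 nearest other genes were Pck1 (0.96), Hp (0.96), Nnmt (0.96), Ifi27l2a (0.94), Prkar2b (0.94), the unnamed transcript NAP025923-1 (0.91), Cd209d (0.91), Cdo1 (0.90), Rbp4 (0.90) and Rarres2 (0.90). Pck1 encodes the enzyme of glyceroneogenesis, by which fat re-esterifies fatty acids, Rbp4 the retinol carrier secreted by fat, and Rarres2 the adipokine chemerin. Pck1 stood at 1.54, 1.12, 2.41, 3.42 and 2.00 on soleus control 1 to 5 and at -0.12, 1.99, 2.47, 1.68 and 0.39 on soleus HLS 1 to 5. Array 4 was the highest control and HLS 3 the highest suspended array, as for Adipoq, while the lowest control array was 2 for Pck1 and 1 for Adipoq. Of the 10, 9 were also higher in control soleus than in control gastrocnemius, from 3.16 ± 0.60 (Hp, adjusted p = 0.00054) to 0.57 ± 0.16 (Rarres2, adjusted p = 0.0097). Cd209d, a lectin gene of macrophages, was not (0.26, adjusted p = 0.69).

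Outside the markers, the HLS calls of the other lists are given as fitted, without a block. In gastrocnemius all 5 control arrays were scanned on day 1 and HLS 2 to 5 on day 2, and none of the 9 list genes called there passed with scan day or slide as a block. With these blocks 0.0633% and 0.0395% of all genes passed, against 3.17% without. The directions of the 9 held, but Dgat2 went from 0.98 to 0.12 and Kdr from -1.12 to -0.59 with scan day. With spike-in scaling 4 of the 9 passed, against 93% of all genes, and Acss2 and Mgll, which fell here, stood at 0.13. In soleus, 16 list genes were called. Of these 8 passed with scan day as a block and none with slide, where 3.07% and 0.087% of all genes passed, against 5.95% without. Without HLS 1, 14 of the 16 passed, all but Cebpd (1.13, adjusted p = 0.059) and Ddit3 (-0.58, adjusted p = 0.058). No direction turned.

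Other white-fat genes followed in part. Of 14 measured, 8 were higher in control soleus (Hp 3.16 and Pck1 2.70 at the top) and 1 was lower, Gpd1 (-2.0 ± 0.22, adjusted p = 3.5e-06), which glycolytic muscle also makes; their median was 0.67. The mean level of the 13 with values on every array followed Adipoq over the 20 arrays with r = 0.98. Lgals12 (0.24, adjusted p = 0.44) and Adig (0.16, adjusted p = 0.41), both in this list of white-fat genes, did not pass. Under HLS in soleus, Npr3, the clearance receptor of natriuretic peptides, fell by 1.74 ± 0.34 (adjusted p = 0.0028) and Gpd1 rose by 1.11 ± 0.22 (adjusted p = 0.0028), with a median of -0.39 over the 14. In gastrocnemius none of the 14 passed.

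Genes of droplets and lipolysis that muscle fibres also use behaved differently from Plin1 and Cidec. In control soleus 6 of 13 were higher, led by Plin5 (1.28 ± 0.13, adjusted p = 2.6e-06), the perilipin of oxidative tissue, and Plin3 (1.17 ± 0.20), with a median of 0.63. HLS soleus had Pnpla2, the first lipase of triglyceride breakdown, higher by 0.88 ± 0.16 (adjusted p = 0.0013) and Plin5 by 0.66 ± 0.13 (adjusted p = 0.0036), while G0s2, an inhibitor of that lipase, fell by 1.10 ± 0.26 (adjusted p = 0.014). In HLS gastrocnemius Plin4 rose by 0.74 and Mgll fell by 0.65 (adjusted p = 0.03 and 0.035). Over the 20 arrays the mean of the 12 with values on every array followed Adipoq with r = 0.36, and with r = -0.03 without soleus HLS 1.

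Of 16 lipogenesis genes, 3 were higher and 2 lower in control soleus, with a median of 0, led by Dgat2, which completes triglyceride synthesis (2.05 ± 0.26, adjusted p = 1.6e-05), and Fasn (0.75), against Me1 (-0.67) and Acaca (-0.52). Under HLS, Mlxipl, the carbohydrate-sensing factor ChREBP, fell by 0.98 ± 0.18 in soleus (adjusted p = 0.0013) and by 0.82 ± 0.18 in gastrocnemius (adjusted p = 0.01), and Acss2 by 0.64 and 0.65. Lpin1 rose in soleus (0.71) and Dgat2 in gastrocnemius (0.98). Of 20 adipogenic factors, 3 were higher (Cebpb 1.08, Klf15 0.85) and 1 lower (Klf5 -0.44) in control soleus. Under HLS, Cebpd, an early C/EBP factor that stress also induces, rose by 1.09 ± 0.31 in soleus (adjusted p = 0.043) and by 1.32 ± 0.31 in gastrocnemius (adjusted p = 0.022). Ppara, the oxidative member of the PPAR family, fell by 1.12 and 1.38 (adjusted p = 0.022 and 0.0085), and Ppargc1a was also among the 3 that fell in soleus (-0.87, adjusted p = 0.02).

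Of 14 genes of fatty acid uptake and use in muscle, or of its regulation, 11 were higher in control soleus, with a median of 0.82. Angptl4, a regulator in this list (2.0 ± 0.24), and Cd36 (1.34 ± 0.11) were at the top. The mean of the 14 stayed within 2.93 to 3.49 on all soleus arrays, high or low in Adipoq. Under HLS 1 passed in soleus (Slc27a1, 0.66) and none in gastrocnemius. Of 7 genes of adipokine reception, Appl2, an adaptor of adiponectin receptors, was higher in control soleus (0.42) and rose under HLS in gastrocnemius (0.52), and none passed in HLS soleus, where the lowest p was that of Cdh13 (-0.52, adjusted p = 0.064).

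Markers of other cells moved with the adipocyte markers in part. Of 12 macrophage genes none differed between the control muscles, where the lowest p was that of Cd163 (0.77, adjusted p = 0.073). Their mean level ran from -0.37 to 0.84 on soleus arrays and from -0.07 to 0.30 on gastrocnemius arrays. It followed Adipoq in soleus with r = 0.96 (10 arrays, 0.95 without HLS 1) but had an r of 0.14 in gastrocnemius. The mean of 12 fibro-adipogenic genes, those of the stromal progenitors of muscle fat, had an r with Adipoq of 0.79 in soleus (0.76 without HLS 1) and 0.37 in gastrocnemius. In control soleus 1 of them was higher (Dcn 0.40) and 2 lower (Clec3b -0.62, Dlk1 -0.51), and under HLS Mfap5 fell by 0.99 and Ly6a by 0.71 in soleus. Of 12 endothelial genes 4 were higher in control soleus (Vwf 0.66 and Emcn 0.39 at the top), and Kdr fell under HLS in gastrocnemius (-1.12, adjusted p = 0.023). The endothelial mean had an r with Adipoq of 0.28 in soleus (0.62 without HLS 1) and -0.38 in gastrocnemius. All 6 slow-fibre genes were higher in control soleus, led by Tpm3 (4.04) and Tnni1 (3.76), and of 6 fast-fibre genes 4 were lower (Actn3 -4.32 and Myh4 -2.24 at the end) and 1 higher (Tnni2 0.35). No gene of the macrophage, slow-fibre or fast-fibre lists passed under HLS in either muscle, none of the endothelial list in soleus and none of the fibro-adipogenic list in gastrocnemius. The part of these cells in the marker results was not tested.

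Different probes of a gene did not always give the same size. For Fabp4 the probes other than the brightest gave muscle differences in controls of 1.52 and 1.25 against 1.03, all with an adjusted p below 0.001. The probe with 1.52 ranged from 0.63 to 0.89 on gastrocnemius control arrays and from 0.92 to 1.27 on gastrocnemius HLS arrays, without overlap (0.35 ± 0.23, adjusted p = 0.55), where the brightest probe gave -0.06 with overlap. One of these, with a difference of 1.25, lost 3 spots marked uneven, leaving 3 soleus and 4 gastrocnemius control values. The dimmer Retn probe gave 1.80 ± 0.35 against 0.95, and under HLS in soleus -1.05 ± 0.35 (adjusted p = 0.093) against -0.47. The dimmer Cebpa probe gave 0.68 ± 0.35 (adjusted p = 0.15), where its partner gave -0.13, and ranged over 6.8-fold within soleus controls, so the direction for Cebpa depends on the probe. Between the muscles of HLS mice the dimmer Retn probe overlapped (-2.35 to -0.26 in soleus, -2.71 to -1.53 in gastrocnemius). It did not pass there (0.75 ± 0.35, adjusted p = 0.11). The Fabp4 probe with 1.52 also overlapped in HLS mice (1.15 to 2.62 against 0.92 to 1.27) but passed (0.76 ± 0.23, adjusted p = 0.019). The Fabp4 probe with 1.25 did not overlap there. The dimmer Cebpa probe gave 0.87 ± 0.35 in HLS mice (adjusted p = 0.065), where its partner gave -0.23. It was higher in soleus without overlap (-1.46 to -0.60 against -2.38 to -1.63), as were 8% of all genes by their brightest probes.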

How the data were processed

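Total RNA of soleus and gastrocnemius from 10 mice was hybridised to 20 one-colour arrays, 600 ng for each labelling with spike-in RNA, per the labels' protocols. Per the file headers, Agilent's software (Feature Extraction 9.1.3.1) wrote the deposited linear intensity of every spot, background-subtracted and detrended but not scaled between arrays. The value table of the authors equalled the processed intensity within 0.5%, and was an alternative. The 75th percentile of intensity ran from 385.5 to 736.1 between arrays, and 80.75% to 93.08% of probes were well above background. The number of arrays limits the precision.

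From these values, uneven spots were dropped, intensities were divided by their array's 75th percentile (non-control spots) and logged to base 2 (log2), and replicate spots were averaged. Probes needed to be well above background on 4 or more of a group's 5 arrays, with 3 or more values in every group, and the brightest kept probe stood for its gene. A means model of the 4 groups was fitted over all 20 arrays by lmFit and eBayes of limma 3.58.1, run under R 4.3.3 with the data.table package (version 1.17.8). Tests are two-sided, and adjusted p is Benjamini-Hochberg over 25292 genes with a threshold of 0.05. The script was tested on simulated data. Promoters were searched with Python 3.11.15 and figures drawn with matplotlib 3.10.9. Of the replicates the labels say only that each is 1 animal, and that both muscles of 1 number in an arm came from 1 mouse.

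The markers and lists were chosen with earlier results of these data known. Named genes are all 10 markers, up to 2 passing genes at each end of every other list (or the 1 of lowest p), and the 10 genes most like Adipoq. Lgals12 and Adig were named after their values had been seen. The E1A spike-ins stood at 2.55 ± 0.08 in gastrocnemius control, 1.77 ± 0.13 in gastrocnemius HLS, 1.49 ± 0.04 in soleus control and 1.75 ± 0.20 in soleus HLS relative to the percentile (SD, n = 5), so all results are relative to the percentile. Both muscles of 1 number in an arm came from 1 mouse, per the labels, which makes the animal a block for the muscle comparisons and the interaction; their deviations over all genes correlated at -0.344 to 0.17, with a median of 0.036 over 10 animals. Control and HLS mice of 1 number are different animals. The alternatives were quantile and spike-in scaling, another background correction, their value table, 2 filters, other probe rules, only the compared groups, slide, scan day, number or animal as a block, Adipoq as a covariate, and each array left out.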

Additional observations from a re-analysis of the deposited data

Results flagged for a closer look

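Over 40 groups of 5 arrays (10 markers in 4 groups), 2 held an array far from the other 4, and chance gives about 1 such group in 20. Both were for Scd1 in gastrocnemius. Scd1 stood at 2.09 on gastrocnemius control 2, where the next array was at 1.15. It stood at 1.32 on gastrocnemius HLS 3, where the next was at 0.67. Adipoq on these arrays was 1.14, the highest of the controls, and 0.25, the second lowest of the HLS arrays.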

How the results depend on the processing

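The number of markers called was the same under quantile normalisation, normexp background, the authors' value table, both other filters, the mean of all probes and slide as a random block: 0 for HLS in each muscle, 0 for the interaction and 9 for the muscles in controls. In HLS mice, with 9 in the report, normexp lost Lep (0.40, adjusted p = 0.06) and a fit of the compared groups alone lost Scd1 (1.59, adjusted p = 0.056). With the replicate number or the animal as a block these counts were also 0 and 9, so the pairing changed no call of a marker. Leaving out 1 array gave 0 for both HLS comparisons and the interaction, 9 for the muscles in controls and 7 to 9 for the muscles in HLS mice. Scaling to the E1A spike-ins put the median of all genes at -0.21 for HLS in soleus, 0.79 for HLS in gastrocnemius, -1.01 for the interaction and 1 for the control muscles, and 3, 5, 8 and 10 markers were then called, against 13.3%, 93.0%, 92.1% and 89.3% of all genes. Under it all 8 markers with estimates below 0 for HLS in gastrocnemius stood above 0. Of these, Fabp4 (0.71), Lep (0.69) and Retn (0.56) passed. Adipoq (0.63), Cfd (0.52), Scd1 (0.29), Plin1 (0.24) and Cidec (0.21) did not pass. Cebpa (0.92) also turned to the other side of 0 between the control muscles, and passed. Relative to the shifted median Fabp4, Lep, Retn and Cebpa stood at -0.08, -0.10, -0.23 and -0.08. With scan day as a block 1 marker was called between the control muscles. With Adipoq as a covariate 0 of the other 9 were called between the control muscles and 1 in HLS mice, and Lep (-0.13 and -0.03) and Scd1 (-0.36 and -0.05) turned in controls and HLS mice. Slide as a fixed block could not be fitted for the muscles, since no slide holds both. Over all genes, HLS called 22 to 3375 genes in soleus over these settings (1504 in the report) and 10 to 23534 in gastrocnemius (801). The causes of these shifts were not tested.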

Other observations

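Genes of brown fat, whose adipocytes burn lipid for heat, did not follow the white-fat markers. Of 8 such genes, 3 were higher in control soleus, among them Cidea (1.86 ± 0.20, limma adjusted p = 2.7e-06) and Dio2 (0.92 ± 0.19, adjusted p = 0.0012). Ucp1, the uncoupling protein that defines brown fat, was lower (-1.40 ± 0.27, adjusted p = 0.00064). Cidea, a relative of Cidec, stood at 2.15 to 2.65 in control soleus and 2.30 to 3.12 in HLS soleus (difference 0.48 ± 0.20, adjusted p = 0.18). Dio2, which activates thyroid hormone, fell by 1.10 ± 0.19 in soleus under HLS (adjusted p = 0.0012), and its HLS range (-1.77 to -0.59) lay below its control range (-0.28 to 0.31). The mean of the 8 genes followed Adipoq over 20 arrays with r = 0.03, and with r = -0.25 without soleus HLS 1. Without that array Dio2 differed by -1.04 in soleus (adjusted p = 0.0041). Blocked by scan day it differed by -1.0 (adjusted p = 0.021), and blocked by slide by -0.77 (adjusted p = 0.76).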
